A study of Brassica juncea with 18 samples.

Results

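The genes described here are basic leucine zipper (bZIP) transcription factors of Indian mustard (Brassica juncea), including a transcript annotated as ABA insensitive 5-like (ABI5-like). A transcript was included when its annotated domains held bZIP, when its best protein hit named bZIP, basic leucine zipper, ABI5, HY5 or a G-box binding factor, or, for the ABI5-like transcript c67939_g5_i4, because it was listed by its identifier. This gave 39 of 13342 transcripts in the expression table, from 25 of 9446 unigenes (assembled genes that may hold several isoforms). The same rule found 286 of 133641 transcripts in the whole annotated assembly, and the others were not analysed here for expression. Of the 39 transcripts, 27 carried a bZIP domain in the annotation and 12 did not, the ABI5-like transcript among them.

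A bZIP protein holds a basic stretch that contacts DNA beside a leucine zipper through which the factors pair, and plant bZIP factors typically bind motifs with an ACGT core. ABI5 and the related DPBF and ABF factors carry the response to abscisic acid (ABA) in seeds and stressed tissue, where they bind ABA-responsive elements. HY5 promotes light-dependent transcription, and TGA factors work with NPR1 in salicylic acid signalling. These roles are known from Arabidopsis.

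Cold-stressed siliques were self-pollinated branches of field-grown var. Varuna, excised, stood in water and kept in the light at 4 °C for 6 h or 12 h. Control siliques came from excised branches stood in water in the field. Whole siliques of 6 stages were taken, aged 5 to 30 days after pollination (DAP) in steps of 5 days. By the study's account, the controls of different stages shared a harvest day. There was 1 library for each stage and treatment, which made 6 libraries for 6 h, 6 for 12 h and 6 for control. The study labels the control 0 h, and the 1 control library of a stage served both durations. The temperature, the move from the field, the light of the treatment and any difference in time since excision cannot be told apart in this design. The hour of harvest was not given in the sources used here.

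Levels are given in FPKM, that is, fragments scaled by transcript length and library size, with a further TMM scaling between libraries. The expression table holds only transcripts that had already been called different between some pair of libraries, so that a call here is not independent evidence of a change. These values do not carry the depth of the libraries. Of the read numbers that the study states, only the share of reads kept in filtering is used here, to class libraries. Stages served as the replicates of a treatment, and p-values therefore measure how far the treatments differed across stages, not between cultures or plants of 1 stage.

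Most of the bZIP transcripts were of low abundance. Their means over the 18 libraries ranged from 0.33 to 8.78 FPKM with a median of 1.07 FPKM, against a median of 1.83 FPKM for all transcripts. The mean was at least 1 FPKM for 21 of them, 24 never reached 5 FPKM, and 27 were above 0 in every library. The most abundant on average was c67625_g1_i1 (b-Zip DNA binding protein), and the ABI5-like transcript followed with 7.36 FPKM. The 5 DAP library of the 6 h treatment held the highest value of 7 bZIP transcripts (17.9%), against 19.4% of all transcripts, and the 15 DAP control library held that of 9 (23.1%), against 4.88%. These 9 include all 4 isoforms of 1 unigene, c70228_g1, so they are not 9 separate genes.

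After 6 h of cold, 4 of the 39 bZIP transcripts rose and 6 fell relative to control by limma across stages (adjusted p under 0.05), where 12.6% of all transcripts rose and 9.21% fell. After 12 h, 6 rose and 8 fell, against backgrounds of 10.2% and 11.2%. The median difference over the bZIP transcripts was -0.13 at 6 h and -0.02 at 12 h on the log2(FPKM + 1) scale, and over all transcripts it was -0.0016 and -0.04. These were 10.3% higher and 15.4% lower of the bZIP transcripts at 6 h, and 15.4% and 20.5% at 12 h, and whether these shares differ from the backgrounds was not tested. Isoforms of 1 unigene share reads and sequence, and at 12 h the 6 that rose came from 3 unigenes and the 8 that fell from 4.

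**Figure D1:**
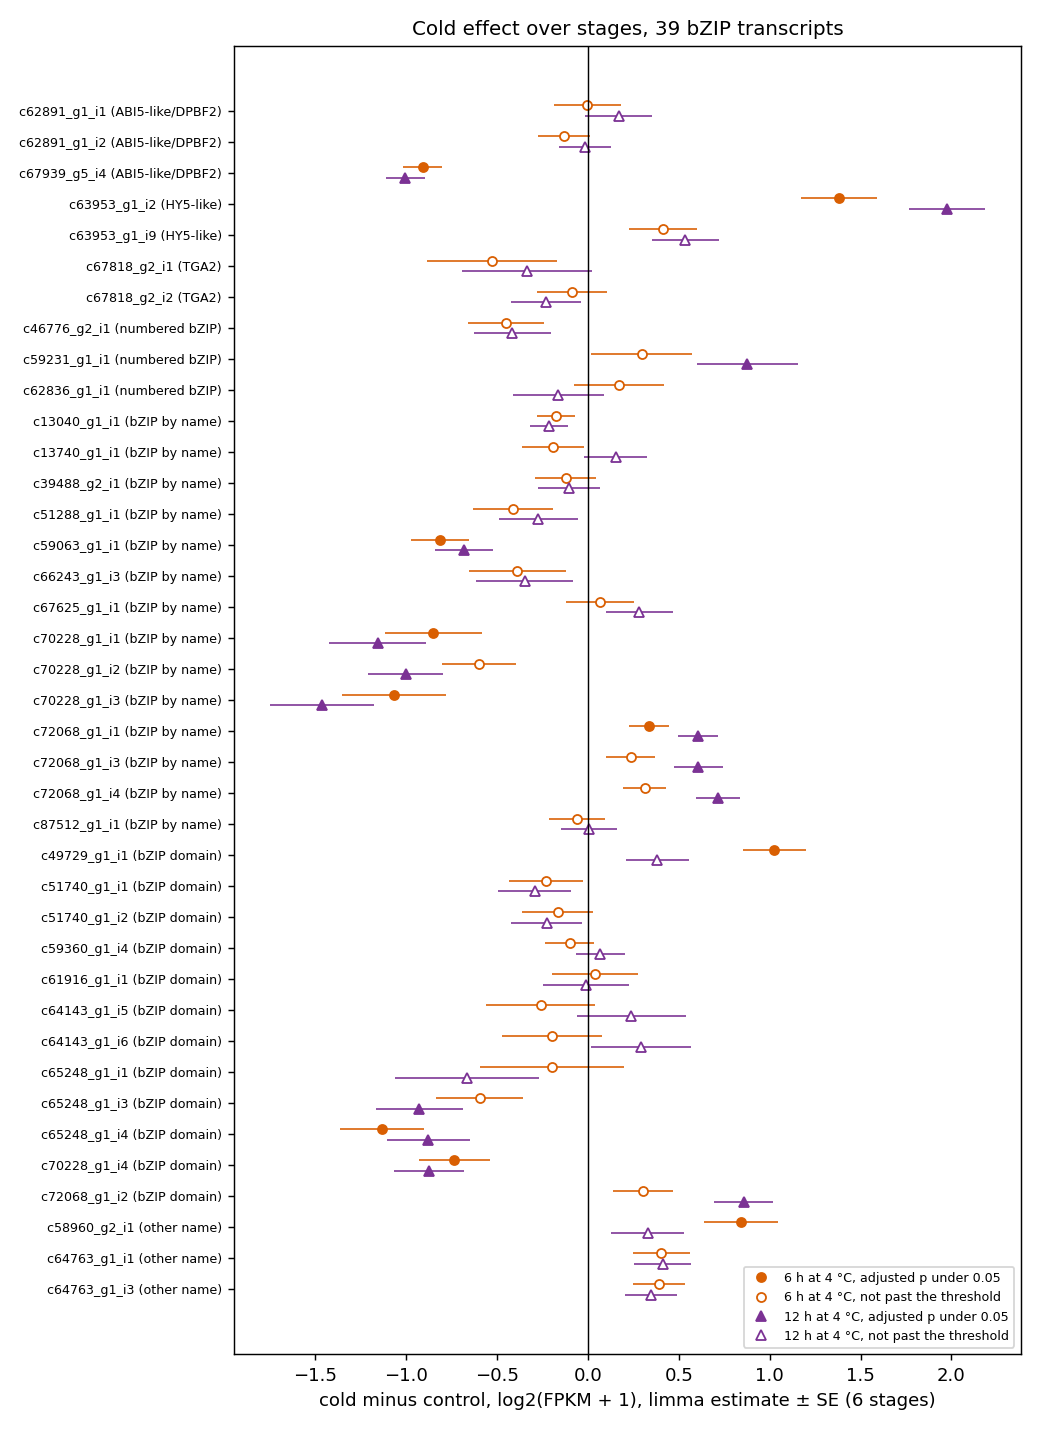
Difference between cold and control siliques over 6 stages for each of the 39 bZIP transcripts, as the limma estimate in log2(FPKM + 1) with its standard error; circles are 6 h, triangles 12 h, and filled symbols passed an adjusted p of 0.05. The ABI5-like transcript lies at -0.91 and -1.002 and the HY5-like isoform c63953_g1_i2 at 1.38 and 1.98.

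The ABI5-like transcript was lower in cold-stressed siliques at every stage. In stage order from 5 to 30 DAP, c67939_g5_i4 had 6.63, 6.38, 7.65, 6.83, 4.67 and 1.82 FPKM after 6 h. It had 6.57, 5.5, 6.48, 5.73, 4.42 and 2.06 FPKM after 12 h. The control siliques had 12.54, 10.95, 15.75, 12.56, 10.67 and 5.19 FPKM. Only the control library at 30 DAP, the lowest control, fell within the range of the cold libraries, and in each stage both cold libraries lay below their own control. The level after 6 h was between 0.351 and 0.583 of control, and the level after 12 h between 0.397 and 0.524 of control.

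The mean ABI5-like level was 5.66 ± 2.12 FPKM after 6 h and 5.13 ± 1.69 FPKM after 12 h, against 11.28 ± 3.49 FPKM in control siliques (SD, n = 6 stages each). ABI5-like fell by 0.91 ± 0.11 on the log2 scale after 6 h (SE, limma adjusted p = 3.32e-05) and by 1.002 ± 0.11 after 12 h (limma adjusted p = 1.53e-05). An exact two-sided sign-flip permutation test over the 6 within-stage differences gave p = 0.03125 for each duration, the smallest this design can give, and 0.03125 after adjustment over both tests. The difference between 12 h and 6 h was -0.10 ± 0.11 (limma adjusted p = 0.739). The cold difference was -1.02 in late stages (20 to 30 DAP) and -0.89 in early stages (5 to 15 DAP), and their difference of -0.12 ± 0.19 did not pass the test (limma adjusted p = 0.976).

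Along development the ABI5-like level was highest at 15 DAP after 6 h and in control siliques and at 5 DAP after 12 h, and it was lowest at 30 DAP in all treatments. Late minus early stages gave -0.57 ± 0.37 (limma adjusted p = 0.331). The transcript is 768 bp long, and the annotation lists no domain for it. Its unigene c67939_g5 holds 6 isoforms in the assembly, of which only c67939_g5_i4 is in the expression table. Of the other isoforms, 1 has the ABI5-like hit, 3 have a biotin/lipoyl attachment domain-containing hit and 1 a hypothetical protein, so that the name of the unigene is mixed. A neighbouring assembled unigene, c67939_g4, shares the component number but does not meet the rule. Its transcript c67939_g4_i1 has the same hypothetical protein as best hit as the isoform c67939_g5_i3. c67939_g4_i1 also fell, by 1.06 ± 0.20 after 6 h (limma adjusted p = 0.00153) and by 0.83 ± 0.20 after 12 h (limma adjusted p = 0.0081). At 25 DAP its level after 12 h was above its control (8.25 against 7.43 FPKM). Whether c67939_g5_i4 encodes an ABI5 factor was not tested.

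Over the 18 libraries, 5 transcripts with a named hit and a mean of at least 1 FPKM followed the ABI5-like pattern most closely by Pearson correlation of log2(FPKM + 1). These were delta-VM23, a tonoplast aquaporin (c65575_g2_i3, r = 0.95), cytochrome P450 84A4 (c7798_g1_i2, r = 0.92), a protein listed as T25K16.10 (c75717_g1_i1, r = 0.89), the fatty acid elongation enzyme 3-ketoacyl-CoA synthase 8 (c68851_g2_i1, r = 0.89) and an RNA-binding RRM protein (c70352_g4_i2, r = 0.89). The libraries share stages and treatments, and the correlations are given as a description.

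**Figure D2:**
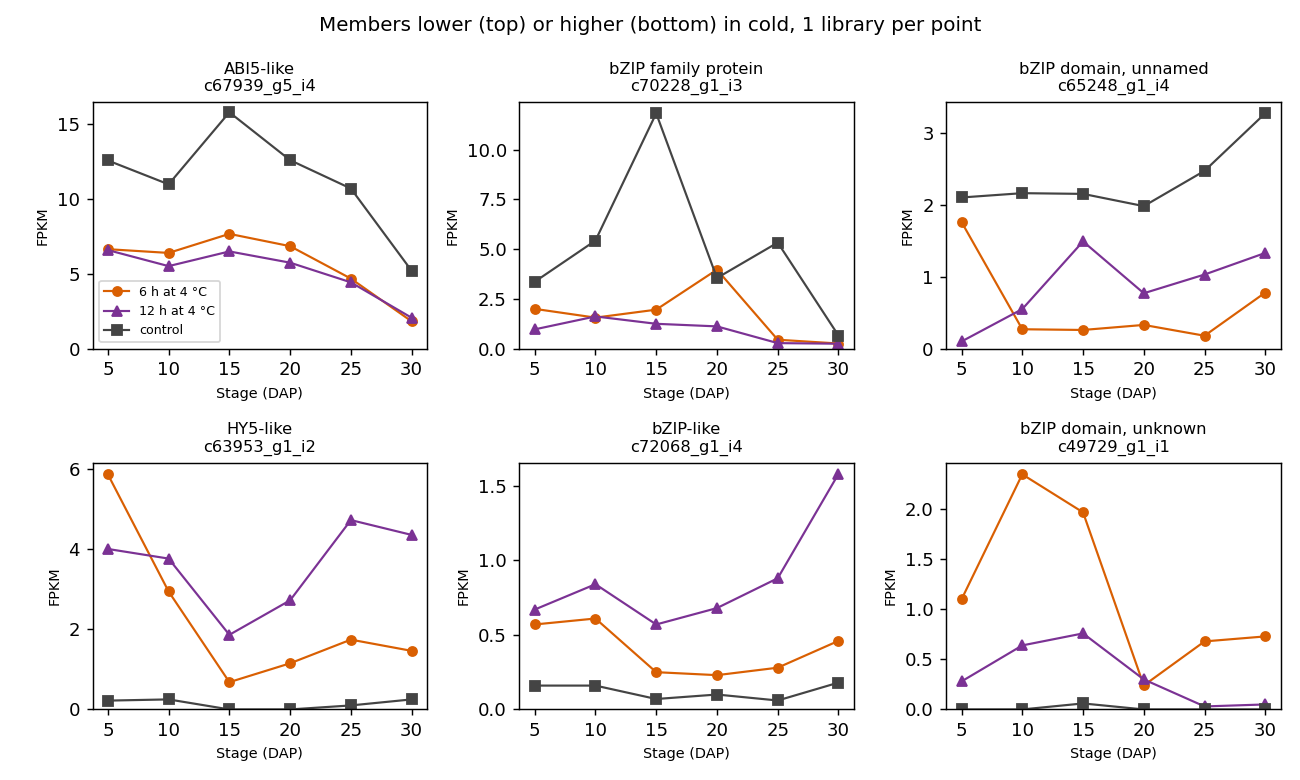
FPKM by stage in siliques after 6 h at 4 °C, after 12 h at 4 °C and in control siliques, 1 library per point, for 3 bZIP transcripts that fell (top) and 3 that rose (bottom) in cold at 6 h, 12 h or both. The ABI5-like control stays above both cold lines at every stage, and the HY5-like control stays at or below 0.25 FPKM.

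The other transcripts of the ABI5 and DPBF group were 2 isoforms of DPBF2, a factor of the ABI5 group that acts in seed maturation in Arabidopsis. The annotation lists no domain for either, and both entered by the name of their best hit. DPBF2 c62891_g1_i1 had 0, 0, 0.15, 1.47, 4.97 and 19.57 FPKM after 6 h from 5 to 30 DAP. It had 0.05, 0, 0.03, 3.39, 9.29 and 13.57 FPKM after 12 h, against 0.03, 0.06, 0.03, 2.59, 3.95 and 16.57 FPKM in control siliques. The late libraries all lay above the early ones, and no order of treatments held across the stages.

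DPBF2 c62891_g1_i1 rose by 2.82 ± 0.57 in late against early stages (limma on 6 stage means, adjusted p = 0.0494). This call was lost without the 5, 10, 15, 25 or 30 DAP stage (adjusted p between 0.0722 and 0.218), in control libraries only (2.71, adjusted p = 0.0704), without the 6 h library at 5 DAP (2.82, adjusted p = 0.0716) and after median ratio rescaling (2.65, adjusted p = 0.057), but the difference stayed between 2.20 and 5.53 in every alternative. For cold, the difference was -0.00 ± 0.18 after 6 h and 0.17 ± 0.18 after 12 h, neither past the test. The second isoform, c62891_g1_i2, reached 5.09 FPKM after 6 h, 4.27 FPKM after 12 h and 4.75 FPKM in control siliques, each at 30 DAP, and gave 1.40 ± 0.42 for late against early stages (limma adjusted p = 0.0969).

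Late against early stages, 3 of 39 bZIP transcripts rose and 0 fell by limma on stage means, against 3.43% and 0.277% of all transcripts, and 1 was lower at an unadjusted p under 0.05. Beside DPBF2, the others were both isoforms of c51740_g1, a DNA binding protein with a bZIP domain. c51740_g1_i1 had 0.04, 0.15, 0.34, 4.89, 11.48 and 9.12 FPKM after 6 h, and 0, 0, 1.1, 3.24, 9.51 and 8.85 FPKM after 12 h. Control siliques had 0, 0.05, 1.11, 11.27, 10.5 and 8.95 FPKM. All late libraries lay above all early ones, and the 20 DAP control was above both cold libraries of that stage.

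The late minus early difference was 2.87 ± 0.35 for c51740_g1_i1 (limma adjusted p = 0.0304) and 2.52 ± 0.35 for c51740_g1_i2 (limma adjusted p = 0.034). Both calls were lost without the 5, 10, 25 or 30 DAP stage (adjusted p between 0.112 and 0.194) and without the 6 h library at 5 DAP (adjusted p = 0.0533). In c51740_g1_i2 the early libraries reached 0.24 FPKM after 6 h, 0.24 FPKM after 12 h and 0.61 FPKM in control siliques, and its cold differences of -0.17 and -0.23 did not pass the test.

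Embryo and seed transcripts (LEC1, LEC2, FUS3, oleosin, cruciferin and napin by name, 36 transcripts) moved the same way with stage. Their summed level was 87.19 to 1149 FPKM after 6 h, 125.2 to 816.2 FPKM after 12 h and 124.2 to 1629 FPKM in control siliques in late stages. In early stages it was 3.97 to 22.14, 5.17 to 22.75 and 3.19 to 11.81 FPKM for the same treatments. Late against early stages, 9 of the 36 rose and 0 fell, against 3.43% and 0.277% of all transcripts. Whole siliques hold seeds and wall together, and more embryo tissue cannot be told apart from more RNA per cell. Its part in these results was not tested. The B3 factors FUS3 and LEC2, partners of ABI5-type factors in seed maturation, gave 5 of 6 transcripts (3 unigenes) higher in late stages. An example was LEC2 c67224_g1_i1 at 1.98 ± 0.31 (limma adjusted p = 0.0373). Both names are also in the embryo and seed list, so these counts are not separate from those above. In cold, 0 of the 6 passed the test at either duration (0 and 1 at an unadjusted p under 0.05). The shares of all transcripts were 12.6% higher and 9.21% lower after 6 h, and 10.2% higher and 11.2% lower after 12 h.

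**Figure D3:**
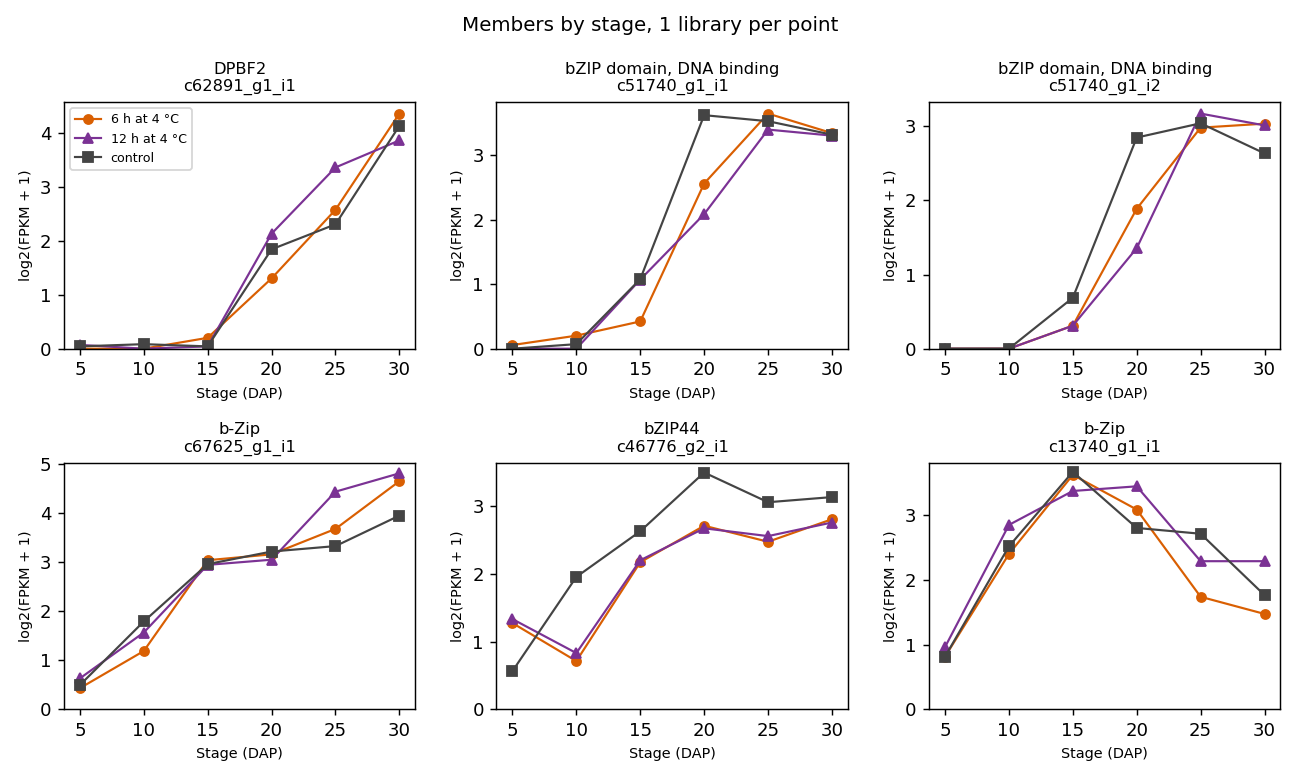
log2(FPKM + 1) by stage in siliques after 6 h at 4 °C, after 12 h at 4 °C and in control siliques, 1 library per point, for the DPBF2 isoform c62891_g1_i1, both c51740_g1 isoforms and 3 further bZIP transcripts of high mean level. DPBF2 and c51740_g1 lie near 0 at 5 and 10 DAP and higher from 20 DAP.

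The most abundant member did not pass the stage test. c67625_g1_i1 (b-Zip DNA binding protein) had 0.35, 1.28, 7.21, 7.92, 11.77 and 24.04 FPKM after 6 h, and 0.55, 1.96, 6.69, 7.27, 20.6 and 26.98 FPKM after 12 h. Control siliques had 0.41, 2.46, 6.77, 8.28, 9.02 and 14.41 FPKM. The late minus early difference was 2.13 ± 0.66 (limma adjusted p = 0.102). At 25 and 30 DAP both cold libraries lay above control, whereas the cold differences over all stages were 0.07 ± 0.19 after 6 h and 0.28 ± 0.19 after 12 h, neither past the test. The late minus early cold difference was 0.58 ± 0.30 (limma adjusted p = 0.942).

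Another transcript with the b-Zip hit, c13740_g1_i1, peaked in mid-development, with 11.32 FPKM at 15 DAP after 6 h, 9.9 FPKM at 20 DAP after 12 h and 11.73 FPKM at 15 DAP in control siliques. Its levels at 5 DAP were 0.76, 0.95 and 0.76 FPKM for the same treatments. bZIP44 (c46776_g2_i1), of the sugar-regulated S1 group in Arabidopsis, averaged 3.61 ± 2.19 FPKM after 6 h and 3.66 ± 2.09 FPKM after 12 h, against 5.66 ± 3.56 FPKM in control siliques (SD, n = 6). It was lower than control in 5 of 6 stages at each duration and higher at 5 DAP, and its differences of -0.45 ± 0.21 and -0.41 ± 0.21 did not pass the test (limma adjusted p = 0.165 and 0.198). No call was made for basic leucine-zipper 7 (c62836_g1_i1, 0.17 ± 0.25 after 6 h and -0.16 ± 0.25 after 12 h). The annotation lists no bZIP domain for c13740_g1_i1, whose only listed domain is 2TM, nor for bZIP44 or basic leucine-zipper 7. These entered by the name of their best hit.

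The HY5-like transcript c63953_g1_i2 gave the largest rise in cold among the bZIP transcripts at both durations on the log2(FPKM + 1) scale, whereas with a pseudocount of 0.1 c49729_g1_i1 rose more after 6 h (3.28, against 3.22 for HY5-like). It had 5.86, 2.94, 0.68, 1.15, 1.74 and 1.46 FPKM after 6 h at 5 to 30 DAP, and 4.0, 3.76, 1.86, 2.72, 4.72 and 4.35 FPKM after 12 h. Control siliques had 0.22, 0.25, 0, 0, 0.1 and 0.25 FPKM. Every cold library lay above every control library. Where the control was above 0, the level after 6 h was between 5.84 and 26.6 times control and after 12 h between 15.0 and 47.2 times control, and at 15 and 20 DAP control was listed at 0.

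HY5-like c63953_g1_i2 rose by 1.38 ± 0.21 after 6 h (limma adjusted p = 0.000278) and by 1.98 ± 0.21 after 12 h (limma adjusted p = 1.37e-05) on the log2(FPKM + 1) scale, which understates the change of transcripts this low. From 10 DAP on, the level after 12 h was above that after 6 h, and at 5 DAP it was below. The difference between 12 h and 6 h over all stages was 0.59 ± 0.21 (limma adjusted p = 0.157). The cold difference was 1.63 in late and 1.73 in early stages, each past the test, and their difference of -0.10 ± 0.33 was not (limma adjusted p = 0.982).

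The second HY5-like isoform in the table, c63953_g1_i9, was higher in 5 of 6 stages after 6 h and in 6 of 6 after 12 h, by 0.41 ± 0.18 and 0.54 ± 0.18 (limma adjusted p = 0.142 and 0.0541). At 30 DAP it had 0.73 FPKM after 6 h, 1.13 FPKM after 12 h and 1.12 FPKM in control siliques. The unigene c63953_g1 holds 10 isoforms in the assembly, 2 of them in the expression table. Summed over these 2, it rose by 1.31 after 6 h and by 1.87 after 12 h (limma adjusted p = 0.000838 and 5.2e-05).

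Light-signalling partners of HY5, chosen by name (COP1, SPA, phytochrome and cryptochrome proteins and those named after them), were 10 transcripts from 7 unigenes. Of these, 1 rose and 2 fell after 6 h, and likewise 1 rose and 2 fell after 12 h. Over all transcripts, 12.6% rose and 9.21% fell after 6 h, and 10.2% rose and 11.2% fell after 12 h. Phytochrome kinase substrate 1 (c65779_g1_i6) rose by 0.84 ± 0.21 after 6 h and by 1.68 ± 0.21 after 12 h (limma adjusted p = 0.0112 and 7.45e-05). Another isoform of its unigene, c65779_g1_i4, did not share this rise. After 6 h that isoform was below control at every stage except 20 DAP. After 12 h it was below control at 15 and 30 DAP and above control at the other stages. Phytochrome kinase substrate 4 (c61309_g1_i1) fell by 0.77 ± 0.23 after 6 h (limma adjusted p = 0.0239). Phytochrome interacting factor 4 (c65395_g1_i3), a promoter of elongation growth, fell by 0.86 ± 0.24 after 12 h (limma adjusted p = 0.0224).

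The TGA group was represented by 2 isoforms of TGA2, neither called. TGA2 c67818_g2_i1 had 6.88, 0.59, 1.15, 0.91, 0.63 and 1.88 FPKM after 6 h and 0.71, 1.52, 2.19, 1.32, 3.66 and 2.57 FPKM after 12 h. Control siliques had 3.01, 3.53, 1.62, 1.35, 2.12 and 5.16 FPKM. After 6 h it was lower than control from 10 to 30 DAP and higher at 5 DAP only, with -0.53 ± 0.36 over stages (limma adjusted p = 0.37), and after 12 h it gave -0.34 ± 0.36 (limma adjusted p = 0.593). The isoform c67818_g2_i2 gave -0.09 ± 0.19 and -0.23 ± 0.19.

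Of 13 transcripts (8 unigenes) of TGA partners (NPR, NIMIN and glutaredoxin by name), 1 rose and 2 fell after 6 h, against 12.6% and 9.21% of all transcripts. After 12 h, 3 rose and 0 fell, against 10.2% and 11.2%. Monothiol glutaredoxin-S4 (c56621_g1_i1) rose by 0.93 ± 0.25 and monothiol glutaredoxin-S9 (c67372_g2_i5) fell by 0.81 ± 0.19 after 6 h (limma adjusted p = 0.0147 and 0.00658). The glutaredoxin family isoforms c57392_g1_i1 and c57392_g1_i2 rose by 1.55 ± 0.25 and 1.69 ± 0.28 after 12 h (limma adjusted p = 0.000555 and 0.000633).

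Among bZIP factors with only a family name, the isoforms of c70228_g1 fell. c70228_g1_i3 had 2.0, 1.56, 1.96, 3.97, 0.45 and 0.26 FPKM after 6 h and 0.97, 1.62, 1.25, 1.12, 0.28 and 0.25 FPKM after 12 h. Control siliques had 3.36, 5.43, 11.82, 3.55, 5.33 and 0.66 FPKM. The 12 h libraries lay below control at every stage, and the 6 h libraries at every stage except 20 DAP. The control at 15 DAP held the highest value for each of the 4 isoforms, all of which are in the table.

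c70228_g1_i3 fell by 1.06 ± 0.29 after 6 h and by 1.46 ± 0.29 after 12 h (limma adjusted p = 0.0152 and 0.00217). Without the 10, 15 or 25 DAP stage the 6 h call was lost (adjusted p between 0.0657 and 0.0711), with a difference from -1.01 to -0.85. c70228_g1_i4 fell by 0.73 ± 0.19 and 0.87 ± 0.19 (limma adjusted p = 0.0142 and 0.0053), and c70228_g1_i1 by 0.85 ± 0.27 and 1.15 ± 0.27 (limma adjusted p = 0.0353 and 0.00661). The 6 h call of c70228_g1_i1 was lost without the 5, 10, 15 or 25 DAP stage (adjusted p between 0.0898 and 0.162, the difference reaching -0.60) and without the 6 h library at 5 DAP (adjusted p = 0.0674). c70228_g1_i2 fell after 12 h only by the test, at -1.002 ± 0.21 (limma adjusted p = 0.00299), with -0.60 ± 0.21 after 6 h (limma adjusted p = 0.0531). The difference between the durations was not past the test for any of these isoforms.

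Isoforms of another unigene, c65248_g1 (unnamed protein with a bZIP domain), were also lower. c65248_g1_i4 had 1.76, 0.27, 0.26, 0.33, 0.18 and 0.78 FPKM after 6 h and 0.1, 0.55, 1.49, 0.77, 1.03 and 1.33 FPKM after 12 h. Control siliques had 2.1, 2.16, 2.15, 1.98, 2.47 and 3.27 FPKM. Every control library lay above every cold library. c65248_g1_i4 fell by 1.13 ± 0.23 after 6 h and by 0.88 ± 0.23 after 12 h (limma adjusted p = 0.00258 and 0.0141). The 12 h call was lost without 10 DAP (-0.85, adjusted p = 0.058).

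c65248_g1_i3 fell by 0.93 ± 0.24 after 12 h (limma adjusted p = 0.0131), with -0.59 ± 0.24 after 6 h (limma adjusted p = 0.102). In c65248_g1_i1 the 6 h library at 5 DAP stood apart with 12.13 FPKM, against 0.18 FPKM after 12 h and 3.58 FPKM in control, and it was not called at either duration. Summed over its 3 isoforms in the table, c65248_g1 gave -1.01 after 6 h and -1.25 after 12 h, and neither passed the test (limma adjusted p = 0.131 and 0.0576).

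The putative basic leucine zipper factor c59063_g1_i1 had 1.51, 0.33, 0.32, 0.69, 0.5 and 0.19 FPKM after 6 h and 1.59, 0.76, 0.33, 0.4, 1.25 and 0.19 FPKM after 12 h. Control siliques had 3.73, 2.44, 0.99, 2.01, 1.05 and 0.94 FPKM. It was below control at all 6 stages after 6 h and at all but 25 DAP after 12 h. c59063_g1_i1 fell by 0.81 ± 0.16 and 0.68 ± 0.16 (limma adjusted p = 0.00202 and 0.00698).

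The 4 isoforms of c72068_g1 (bZIP transcription factor-like protein) rose after 12 h at every stage. c72068_g1_i4 had 0.57, 0.61, 0.25, 0.23, 0.28 and 0.46 FPKM after 6 h and 0.67, 0.84, 0.57, 0.68, 0.88 and 1.58 FPKM after 12 h. Control siliques had 0.16, 0.16, 0.07, 0.1, 0.06 and 0.18 FPKM. Cold and control libraries did not overlap, although all values were low.

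c72068_g1_i4 rose by 0.72 ± 0.12 after 12 h (limma adjusted p = 0.000711), and after 6 h it gave 0.31 ± 0.12 (limma adjusted p = 0.0857). c72068_g1_i1 rose by 0.34 ± 0.11 after 6 h and by 0.61 ± 0.11 after 12 h (limma adjusted p = 0.0412 and 0.00119). Its 6 h call was lost after median ratio rescaling (0.30, adjusted p = 0.0633) and without any stage except 5 DAP (adjusted p between 0.0683 and 0.126). c72068_g1_i2 and c72068_g1_i3 rose after 12 h by 0.86 ± 0.16 and 0.61 ± 0.13 (limma adjusted p = 0.00191 and 0.00508). Summed over isoforms, c72068_g1 gave 0.68 after 6 h and 1.41 after 12 h (limma adjusted p = 0.012 and 5.7e-05).

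c49729_g1_i1, of unknown name with a bZIP domain, was the member whose 12 h level fell below its 6 h level by the test. It had 1.1, 2.35, 1.97, 0.24, 0.68 and 0.73 FPKM after 6 h and 0.28, 0.64, 0.76, 0.3, 0.03 and 0.05 FPKM after 12 h. In control siliques it was listed at 0 in 5 of 6 libraries and at 0.06 FPKM at 15 DAP. It rose by 1.03 ± 0.17 after 6 h (limma adjusted p = 0.000655), and after 12 h it gave 0.38 ± 0.17 (limma adjusted p = 0.142).

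Between 12 h and 6 h of cold, c49729_g1_i1 fell by 0.64 ± 0.17 (limma adjusted p = 0.0497), being lower in all stages except 20 DAP. It was the single bZIP transcript called lower, and 0 were called higher (5 at an unadjusted p under 0.05), against 3.62% lower and 1.29% higher of all transcripts. The call was lost in 10 of its 12 alternatives, among them leaving out any stage other than 20 DAP (differences from -0.63 to -0.57, adjusted p between 0.111 and 0.166). Without the 5 DAP stage 4 bZIP transcripts were called higher, and without only its 6 h library 2 were. The shares of all transcripts called in those fits are not given here. After median ratio rescaling 36.5% of all calls in this comparison were higher, against 26.3% as deposited.

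bZIP48 (basic leucine-zipper 48, c59231_g1_i1) had 0.28, 0.07, 0.75, 0.16, 0.53 and 1.44 FPKM after 6 h and 0.21, 0.57, 2.68, 0.6, 3.92 and 1.09 FPKM after 12 h. Control siliques had 0.13, 0.07, 0, 0, 0 and 1.49 FPKM. It rose by 0.88 ± 0.28 after 12 h (limma adjusted p = 0.0377), in 5 of 6 stages. The value was highest at 25 DAP, and the call was lost without the 10, 15, 20 or 25 DAP stage (adjusted p between 0.0784 and 0.166) and without the 6 h library at 5 DAP (adjusted p = 0.0515).

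Of the 39, 3 transcripts entered through a bZIP_2 domain although their best hit is no bZIP factor. WAVE-DAMPENED 2 (c58960_g2_i1), a microtubule-binding protein in Arabidopsis, had 1.73, 3.33, 1.23, 0.89, 0.43 and 2.01 FPKM after 6 h and 1.96, 0.67, 0.53, 0.44, 0.46 and 0.6 FPKM after 12 h. Control siliques had 0.31, 0.99, 0.34, 0.2, 0.35 and 0.14 FPKM. It rose by 0.84 ± 0.20 after 6 h (limma adjusted p = 0.00774), with 0.33 ± 0.20 after 12 h (limma adjusted p = 0.296). Both isoforms of WRKY DNA-binding protein 31 (c64763_g1_i1 and c64763_g1_i3) were higher than control in 6 of 6 stages at each duration, with 0.40 and 0.39 after 6 h and 0.41 and 0.35 after 12 h, and none passed the test (limma adjusted p from 0.0681 to 0.106).

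**Figure D4:**
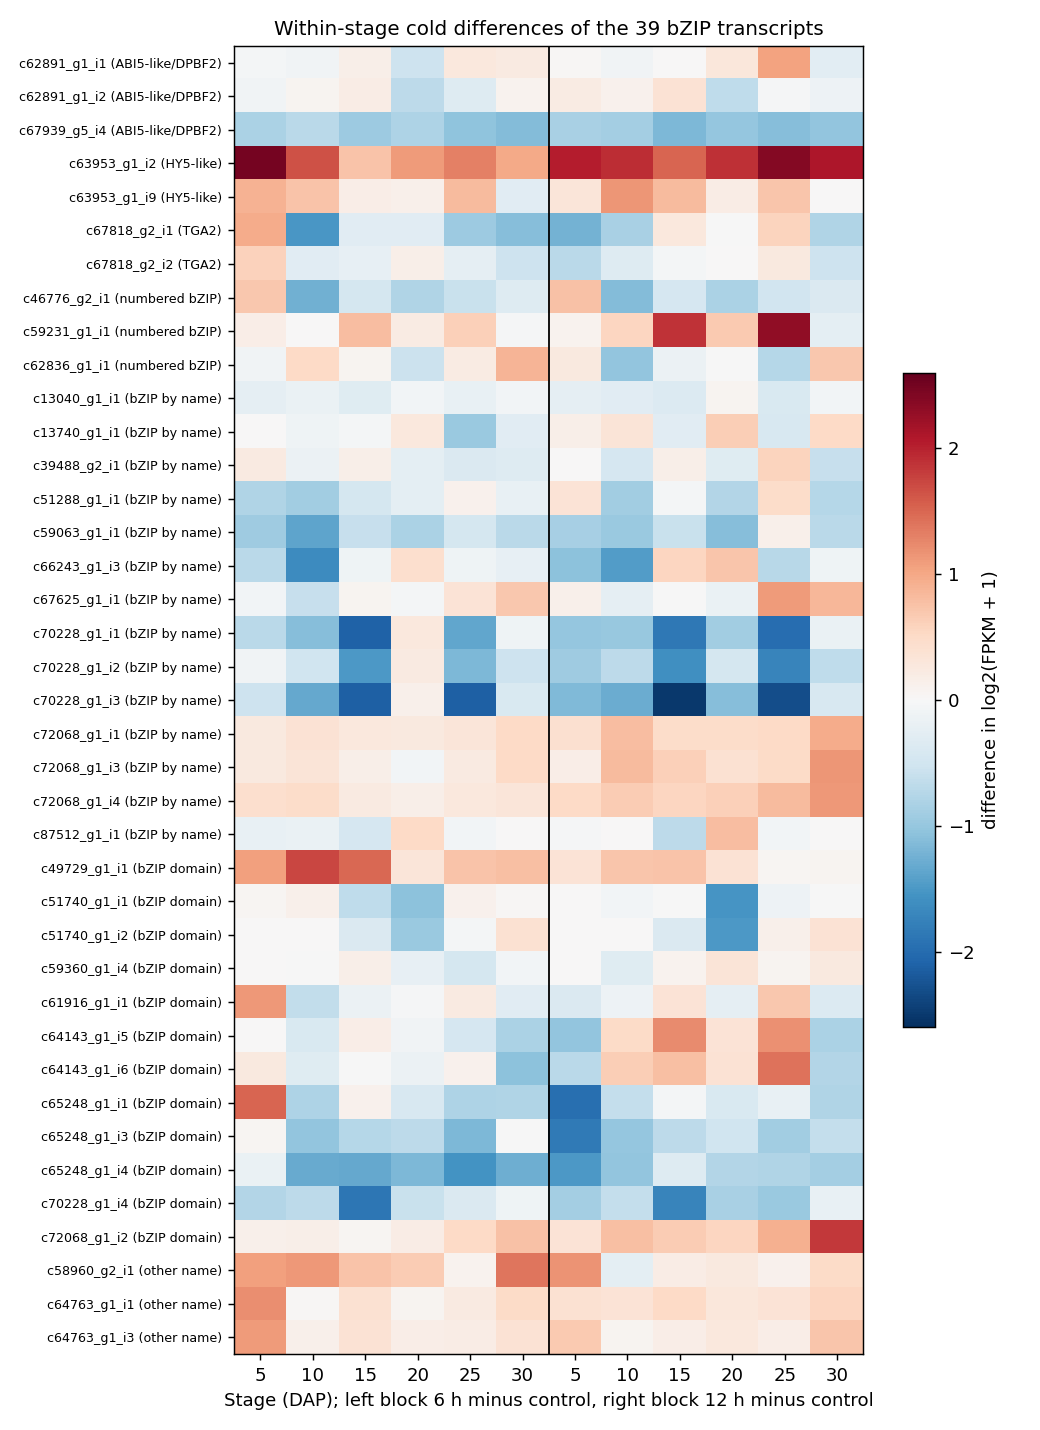
Difference in log2(FPKM + 1) between cold and control libraries at each stage, for each of the 39 bZIP transcripts, with 6 h in the left and 12 h in the right block; red is higher and blue lower in cold. The ABI5-like transcript is lower at all 6 stages in both blocks, and the HY5-like c63953_g1_i2 is higher at all 6.

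The remaining bZIP transcripts passed no test in any comparison. The cold effect did not differ between late and early stages for any of the 13342 transcripts by limma (0 called, 748 at an unadjusted p under 0.05, of which 1 was a bZIP transcript). The smallest adjusted p of a bZIP transcript there was 0.798.

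A larger share of reads had been kept in read filtering for the control and 6 h libraries of 5 to 20 DAP than for all other libraries, so that 6 h and control were always of 1 class within a stage. The 12 h libraries of 5 to 20 DAP differed in class from their controls. With this class as a term, 5 bZIP transcripts rose and 1 fell after 12 h. The share of all transcripts called under this fit is not given here, so the drop in calls cannot be read as particular to bZIP transcripts. The one that fell was ABI5-like (-0.97, limma adjusted p = 0.00406), and HY5-like c63953_g1_i2 (2.36, limma adjusted p = 0.000592) and the 4 c72068_g1 isoforms rose. The c70228_g1, c65248_g1, c59063_g1_i1 and bZIP48 calls at 12 h did not pass under this term. From 5 to 20 DAP the 12 h treatment and the class changed together, so this fit could separate them only in the stages after 20 DAP. Whether read class or the smaller number of usable stages led to these losses was not tested. Without stage as a block, the 6 h calls of ABI5-like (limma adjusted p = 0.0741), c59063_g1_i1, c70228_g1_i1, c70228_g1_i3, c70228_g1_i4 and c72068_g1_i1 were lost, as were the 12 h calls of c59063_g1_i1, bZIP48, c65248_g1_i3, c70228_g1_i1, c70228_g1_i2 and c70228_g1_i4 (limma adjusted p from 0.056 to 0.281).

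Pathway transcripts around ABI5, chosen by name, were mostly not called in cold. Over all transcripts, 12.6% rose and 9.21% fell after 6 h, and 10.2% rose and 11.2% fell after 12 h. None of 7 ABA receptor transcripts passed the test (0 and 1 at an unadjusted p under 0.05 after 6 h and 12 h). The single transcript matched by name as a SnRK2 kinase, SNRK2.9 (c60930_g2_i1), did not pass either. It gave -0.37 ± 0.24 after 6 h and -0.69 ± 0.24 after 12 h (limma adjusted p = 0.332 and 0.0522). The study measured another kinase of this family, SnRK2.6, by qPCR and reported it as cold-inducible at certain silique stages. The receptor nearest to the threshold was the PYL5-like c4628_g1_i1, at -0.30 ± 0.23 after 6 h and -0.55 ± 0.23 after 12 h (limma adjusted p = 0.443 and 0.117).

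Protein phosphatases 2C are a family whose clade A members inhibit SnRK2 kinases in the absence of ABA. Of 12 transcripts of the family (5 unigenes), 1 rose after 6 h and 2 after 12 h, against 12.6% and 10.2% of all transcripts, and 0 fell. Protein phosphatase 2C 77 (c46380_g1_i1) rose by 1.16 ± 0.22 after 6 h (limma adjusted p = 0.00151). A putative protein phosphatase 2C (c67396_g1_i1) rose by 1.29 ± 0.26 after 12 h and protein phosphatase 2C 3 (c69115_g1_i3) by 0.48 ± 0.15 (limma adjusted p = 0.00273 and 0.0334).

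Of 4 transcripts of ABI5-binding proteins (AFP), whose Arabidopsis counterparts bind ABI5 and promote its degradation, 1 fell after 6 h (c41652_g2_i1, -0.92 ± 0.27, limma adjusted p = 0.0237) and none passed after 12 h (0 at an unadjusted p under 0.05). Of all transcripts, 9.21% fell after 6 h and 11.2% after 12 h. The 5 transcripts matched as ABA-responsive targets came from only 2 unigenes, and isoforms of 1 unigene share reads. Of the 5, 3 rose after 6 h and 4 after 12 h, against 12.6% and 10.2% of all transcripts, and 0 fell. LTI65 (low-temperature-induced), an ABA-responsive gene with ABA-responsive elements in its Arabidopsis promoter, rose in c62310_g2_i1 by 0.82 ± 0.21 and 1.12 ± 0.21 (limma adjusted p = 0.0103 and 0.00135) and in c62310_g2_i9 by 0.48 ± 0.14 and 0.80 ± 0.14 (limma adjusted p = 0.0213 and 0.000783).

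Lists of markers for tissues in the silique were set beside the cold results. For each list, the background was 12.6% of all transcripts higher and 9.21% lower after 6 h, and 10.2% higher and 11.2% lower after 12 h. The embryo and seed list had 0 of 36 transcripts called at either duration (0 at an unadjusted p under 0.05 after 6 h and 2 after 12 h). Of 6 transcripts (4 unigenes) of the green silique wall, 1 rose after 6 h, against 12.6% of all transcripts. After 12 h, 1 of them rose and 1 fell, against 10.2% and 11.2%. The median difference of these wall transcripts was 0.17 after 6 h and 0.67 after 12 h on the log2(FPKM + 1) scale. Their summed level was 24.3 to 74.22 FPKM after 6 h, 14.65 to 114.5 FPKM after 12 h and 41.64 to 95.01 FPKM in control siliques. The median of this sum over stages was 58.92 FPKM after 6 h and 41.45 FPKM after 12 h. In control siliques it was 74.29 FPKM, so the summed level and the median difference went opposite ways. The endosperm list (3 transcripts) and the pollen and flower list (6) had 0 called and 0 at an unadjusted p under 0.05 at both durations, and no transcript matched the valve margin list. The part of these tissues in the results was not tested.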

How the data were processed

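The authors deposited TMM-normalized FPKM values to 2 decimals for 13342 transcripts, restricted to transcripts they had called between libraries, and a FastAnnotator annotation of 133641 transcripts. Reads were assembled with Trinity and quantified with RSEM after Bowtie2 alignment, with no version given in the sources used here. The deposited values carry no counts, so precision from depth was not computed. Of the read numbers stated in the study, only the share of reads kept was used. It divided the libraries into read classes at 90%.

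Members were matched on domain and best hit, with a hyphen allowed in the words, and words inside an accession (3 transcripts) were ignored. Members and lists were chosen with earlier results of these data known. log2(FPKM + 1) values were fitted with limma 3.58.1 in R 4.3.3 with stage as a block over 18 libraries (late against early: 6 stage means), and p-values were adjusted by Benjamini-Hochberg over all transcripts, with no filter. The stage block pairs libraries of 1 stage by label. The fit was tested on simulated data with known changes. The named transcripts were c67939_g5_i4, up to 8 called per direction and comparison with the smallest p (1 per unigene), up to 3 of highest mean per group, and 2 per pathway list and duration. Further isoforms of their unigenes were added after their values were seen. Alternatives were a pseudocount of 0.1, a mean of at least 1 FPKM, median ratio rescaling, isoforms summed, no stage block, read class, control libraries only, domain members only, unigenes counted, and leaving out each stage or the 5 DAP 6 h library. One further alternative, leaving out members not named as bZIP, was added after seeing the data.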

Additional observations from a re-analysis of the deposited data

Results flagged for a closer look

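For 27 named bZIP transcripts, the 6 within-stage differences in log2(FPKM + 1) at each duration were searched for 1 stage far from the others by Dixon's test, which flags about 1 in 20 such sets by chance; 5 of 54 sets had one. c51740_g1_i1 was -1.53 after 12 h at 20 DAP, with the other stages from -0.13 to 0.00. WRKY DNA-binding protein 31 c64763_g1_i3 was 1.10 after 6 h at 5 DAP, with the others from 0.14 to 0.38. c65248_g1_i3 was -1.84 after 12 h at 5 DAP, with the others from -1.01 to -0.52. c65248_g1_i4 was -0.17 after 6 h at 5 DAP, with the others from -1.56 to -1.16. c70228_g1_i4 was -1.89 after 6 h at 15 DAP, with the others from -0.76 to -0.12.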

How the results depend on the processing

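Among single transcripts, 318 values under an alternative kept their side of the threshold and 71 lost the call, and the direction changed in 1 of them, the uncalled late minus early cold difference of ABI5-like (0.017 after median ratio rescaling). With a pseudocount of 0.1, 7 bZIP transcripts rose after 6 h and 10 after 12 h, and 1 was higher at 12 h than at 6 h. With a mean of at least 1 FPKM (21 members), 1 rose after 6 h, 1 rose after 12 h and 0 were lower at 12 h than at 6 h. With isoforms summed per unigene, 3 fell after 6 h and 3 after 12 h, and 12 h against 6 h gave 1 higher and 0 lower. Counted as unigenes, 3 rose and 4 fell after 12 h. After median ratio rescaling, 12 h against 6 h gave 2 higher and 0 lower, and the median of all transcripts in late against early stages was -0.13, against 0.0053 as deposited. With read class as a term, 1 fell after 12 h and 0 were lower at 12 h than at 6 h. That fit could separate 12 h from class only in the stages where all libraries were of the same class. Without the 6 h library at 5 DAP, 12 h against 6 h gave 2 higher and 0 lower, and 0 rose in late against early stages. Without the replicate block by stage, 1 fell after 6 h, 3 fell after 12 h and 0 were lower at 12 h than at 6 h. The cause of these shifts was not tested. Shares of all transcripts called are not given for most of these settings or for leaving out single stages. The bZIP counts under them therefore cannot be set against a background.

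Leaving out each stage in turn gave 3 to 4 transcripts higher and 4 to 9 lower after 6 h, 5 to 8 higher and 7 to 9 lower after 12 h, 0 to 4 higher and 0 to 1 lower for 12 h against 6 h, and 0 to 4 higher in late against early stages. The ABI5-like difference stayed between -0.95 and -0.86 after 6 h and between -1.04 and -0.97 after 12 h, where the exact test on 5 stages cannot go below 0.0625. Counts were not analysed here, so the counting error of the transcripts with a mean under 1 FPKM (18 of 39) is not given.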
